A study of Mus musculus with 13 samples.

Results

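Immediate early response genes are the genes that a cell transcribes first when a growth factor, hormone or stress reaches it, before any new protein is made. Kinase cascades act on transcription factors that are already present, the new transcripts are copied quickly and decay quickly, and many of the proteins they encode are themselves transcription factors or brakes on the same kinases. In liver they are known for brisk induction after partial hepatectomy, feeding, injury and the handling of the tissue itself.

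The 10 genes described here were Fos, Fosb, Jun, Junb, Egr1, Ier2, Atf3, Zfp36, Dusp1 and Myc. They were found by matching their symbols in the deposited table of 53392 genes, and all 10 were listed there. All but Ier2 encode products known to control transcription, RNA decay or signaling directly, and Ier2 is a nuclear protein that accompanies the same response.

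RNA of whole liver from 13 female mice was measured by RNaseq. By its GEO design text, the sequencing asked which control is best for a transgene that is induced in alcohol-fed liver. All mice were homozygous for Rosa26-loxP-stop-loxP-rtTA and for Albumin-Cre, which restricts the Dox-dependent activator to hepatocytes, and were 8 to 14 weeks old at use. All were fed the liquid Lieber-DeCarli diet with 28% of calories from ethanol (Etoh) for 4 weeks, a model of alcoholic steatosis and not of advanced liver injury. The ASAH- Etoh-Dox group (n = 4) had no TRE-ASAH1 transgene and received Dox at 200 mg/l. The ASAH+ Etoh-Dox group (n = 5) carried TRE-ASAH1, which encodes the lysosomal enzyme acid ceramidase, and received the same Dox. The ASAH+ Etoh group (n = 4) carried the transgene and received no Dox. Mice are named here by group and by the replicate number of the labels. In ASAH+ samples the titles contradict the descriptions and induction labels on Dox, and the latter were followed. The design text gives 4 mice per group, whereas 5 samples carry the labels of ASAH+ Etoh-Dox, and all 5 were used. Asah1, examined after the groups were set, averaged 49.4 ± 6.78 CPM (counts scaled to library totals of one size, SD, n = 4) in ASAH- Etoh-Dox, 12755 ± 2796 (n = 5) in ASAH+ Etoh-Dox and 46.5 ± 1.70 (n = 4) in ASAH+ Etoh. Hepatocyte markers made up 99905 to 159120 CPM in every liver.

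The total count per liver ran from 17819486 to 35358711 (median 24454043), and the library with the fewest was ASAH+ Etoh 4. CPM were computed on library totals after TMM scaling. Counts of replicates differed by more than sampling noise in all 22 pairs within groups (chi-square 17.3 to 95.4 times its degrees of freedom), so each counted as 1 mouse, and p-values measure the spread between these livers. In bulk RNA, fewer cells of a type and less RNA per cell cannot be told apart. Of the 10 genes, 9 passed the filter on low counts and were tested among 14317 genes. Fosb, with 1 to 26 counts per mouse, did not pass.

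The genes were present at very different levels. Divided by the length of the annotated exons, the median over the 13 mice was 15.5 CPM per kb for Zfp36, 6.54 for Egr1, 5.09 for Ier2, 3.75 for Junb, 2.93 for Dusp1, 1.94 for Jun, 0.794 for Myc, 0.603 for Atf3, 0.426 for Fos and 0.0346 for Fosb. Neighbors in this order were not always separate within a mouse. Zfp36 was above Egr1 in 12 of 13 mice and Fos above Fosb in 13 of 13, whereas Junb was above Dusp1 in 7 and Myc above Atf3 in 6. The most abundant member was therefore an RNA decay factor, and the least abundant were the FOS-type subunits of AP-1.

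Promoter sequence was taken from RefSeq for 7 of the genes, on build GRCm38.p6, as the 250 bases before the annotated start. Fos, Dusp1, Jun and Atf3 are shown because Fos with Dusp1 and Jun with Atf3 had the highest correlations between mice described further on. Capitals mark motif letters found by search on both strands. In Fos they are the core of the cyclic AMP response element (CRE), TGACGT, at positions -66 to -61 from the start, and the TATA box, TATAAA, at -33 to -28. In Jun they are the ATF/Jun motif TGACATCA at -45 to -38. For Atf3 and Dusp1, whose longer transcript models reach into the window, only 30 bases around the CRE core are given. The core reads ACGTCA in Atf3, on the opposite strand, at -8 to -3, and in Dusp1 the motif on either strand overlaps itself at -143 to -136. The window of Dusp1 also held the core at -191 to -186 and the E-box CACGTG at -126 to -121.
Fos, chr12:85473640-85473889, plus strand: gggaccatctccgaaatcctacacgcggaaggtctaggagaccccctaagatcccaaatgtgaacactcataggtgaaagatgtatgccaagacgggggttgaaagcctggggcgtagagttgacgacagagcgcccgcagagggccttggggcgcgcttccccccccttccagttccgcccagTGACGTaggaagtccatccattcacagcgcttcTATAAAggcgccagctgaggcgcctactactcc
Jun, chr4:95052223-95052472, minus strand: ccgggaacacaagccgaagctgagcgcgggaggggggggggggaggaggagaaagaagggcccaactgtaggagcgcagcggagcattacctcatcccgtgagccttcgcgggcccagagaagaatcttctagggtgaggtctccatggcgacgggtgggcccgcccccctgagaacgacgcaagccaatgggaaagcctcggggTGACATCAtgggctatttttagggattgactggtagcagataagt
Atf3, chr1:191183334-191183363, minus strand: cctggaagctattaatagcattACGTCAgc
Dusp1, chr17:26508597-26508626, minus strand: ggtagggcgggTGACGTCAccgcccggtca

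The CRE core was found in 3 of the 7 windows (Fos, Atf3 and Dusp1), and 6.47% of all 32851 windows of this length held it. The ATF/Jun motif was in the window of Jun, against 2.93% of all windows. The window of Zfp36 held a CArG box, the motif of serum response factor, which 1.47% of all windows held. It also held the ETS core CCGGAAG (6.91% of windows) and, like the window of Fosb, the EGR motif GCGNGGGCG (4.7%). Annotated exons of the same strand also reach into the windows of Zfp36 (2 exon records) and Fosb (5). The window of Zfp36 lies within the annotated locus of the gene. The E-box was in 6.02% and the TATA box in 12.4% of all windows. The AP-1 motif TGANTCA, held by 6.75% of windows, was in none of the 7, and the window of Junb held none of the 8 motifs searched. A match describes letters in a window and does not show that a factor binds there.

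Fos encodes the inducible partner of JUN proteins in the transcription factor AP-1. It lies at chr12:85473890-85477273 on the plus strand. Its level was 6.21, 1.00, 1.63 and 0.822 CPM in ASAH- Etoh-Dox mice 1 to 4. It was 1.52, 0.865, 0.723, 2.61 and 0.868 CPM in ASAH+ Etoh-Dox mice 1 to 5. It was 1.57, 0.163, 0.325 and 4.57 CPM in ASAH+ Etoh mice 1 to 4. In each group 1 or 2 mice stood high, and the groups overlapped throughout, with a 38.2-fold range from the lowest liver (4 counts) to the highest (136 counts). Relative to ASAH- Etoh-Dox, the log2 fold change in ASAH+ Etoh-Dox was -0.86 ± 0.83 (SE), with a 95% confidence interval from -2.65 to 0.94, and it did not pass edgeR's quasi-likelihood test (adjusted p = 0.99966). It was 0.21 without ASAH- Etoh-Dox 1, -0.46 with limma-voom, and -0.50 in a fit, chosen after seeing the data, that also held the log2 difference between the clock genes Dbp and Arntl. None passed the threshold.

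Fosb encodes a close relative of FOS, at chr7:19302696-19310051 on the minus strand. It had 13, 5, 9 and 3 counts in ASAH- Etoh-Dox mice, 12, 6, 8, 5 and 1 in ASAH+ Etoh-Dox mice, and 10, 1, 3 and 26 in ASAH+ Etoh mice. The 26 counts of ASAH+ Etoh 4 (1.5 CPM) and the 13 counts of ASAH- Etoh-Dox 1 (0.594 CPM) were the highest, in the mice that also led Fos. Exact permutation tests of the mean log2 CPM gave two-sided p = 0.452, 0.563 and 0.886 in the 3 comparisons.

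Jun, the AP-1 subunit that can pair with itself or with FOS, is a single-exon gene at chr4:95049034-95052222 on the minus strand and overlaps the antisense gene Junos. It measured 8.95, 7.01, 10.8 and 6.19 CPM in ASAH- Etoh-Dox, 21.4, 5.66, 2.02, 5.46 and 5.03 CPM in ASAH+ Etoh-Dox, and 9.54, 5.09, 5.15 and 14.3 CPM in ASAH+ Etoh. The highest and the lowest liver of all 13, ASAH+ Etoh-Dox 1 and ASAH+ Etoh-Dox 3, were in the same group. Group means were 8.24 ± 2.07, 7.92 ± 7.69 and 8.53 ± 4.40 CPM (SD, n = 4, 5 and 4), and the 3 log2 fold changes lay between -0.08 and -0.04. Without ASAH+ Etoh-Dox 1 those of its group were -0.86 against ASAH- Etoh-Dox and -0.91 against ASAH+ Etoh, not past the threshold.

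Junb encodes an AP-1 subunit that can dampen JUN, at chr8:84974484-84978718 on the minus strand, where it overlaps Prdx2 on the other strand. It measured 8.63, 8.94, 11.9 and 3.93 CPM in ASAH- Etoh-Dox. It measured 9.24, 3.78, 2.82, 9.83 and 13.4 CPM in ASAH+ Etoh-Dox, and 5.58, 3.74, 6.5 and 12.0 CPM in ASAH+ Etoh. The lowest liver of a group lay between 2.82 and 3.93 CPM and the highest between 11.9 and 13.4 CPM, so the groups overlapped over nearly their whole range.

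Egr1 encodes a zinc finger transcription factor induced through the MAPK pathway and serum response factor, at chr18:34859823-34864984 on the plus strand. It was the member with the most counts in single mice, up to 2389. Its level was 91.3, 17.2, 29.3 and 19.8 CPM in ASAH- Etoh-Dox, 44.7, 8.83, 38.8, 95.8 and 46.9 CPM in ASAH+ Etoh-Dox, and 16.6, 22.9, 8.63 and 57.8 CPM in ASAH+ Etoh. In each group 1 liver was over 2 times as high as the next, and the range over all mice was 11.1-fold. Relative to ASAH+ Etoh, the log2 fold change in ASAH+ Etoh-Dox was 0.83 ± 0.72 (SE), with a 95% confidence interval from -0.74 to 2.41 (adjusted p = 0.83 in edgeR's quasi-likelihood test), and the mouse of the first group was higher in 14 of 20 pairs. This value was 0.40 without ASAH+ Etoh-Dox 4, 0.53 without ASAH+ Etoh 3 and 1.54 without ASAH+ Etoh 4, none past the threshold.

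Ier2, a single-exon gene at chr8:84661331-84662852 on the minus strand, was the member nearest to a difference between groups. It measured 10.8, 8.44, 9.75 and 5.36 CPM in ASAH- Etoh-Dox, 8.71, 5.73, 5.53, 12.3 and 14 CPM in ASAH+ Etoh-Dox, and 4.19, 4.56, 5.43 and 7.75 CPM in ASAH+ Etoh. The ASAH+ Etoh mice were low in general, but ASAH+ Etoh 4 lay above 2 of the ASAH+ Etoh-Dox mice and 1 ASAH- Etoh-Dox mouse. In ASAH+ Etoh-Dox relative to ASAH+ Etoh the log2 fold change was 0.76 ± 0.31 (SE), a 1.69-fold higher level, with an unadjusted p of 0.0286 that was lost on Benjamini-Hochberg adjustment in edgeR (adjusted p = 0.619). The exact two-sided permutation test gave p = 0.111, where 0.00794 was the smallest possible, and Ier2 was higher in 18 of 20 pairs of mice. Against the same ASAH+ Etoh mice, ASAH- Etoh-Dox gave 0.65 ± 0.32 (SE) (adjusted p = 0.567 in edgeR, exact permutation p = 0.0857), so these 2 values share their control livers. Between the 2 Etoh-Dox groups the log2 fold change of Ier2 was 0.11 ± 0.30, with an interval from -0.54 to 0.75.

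Erythroid markers were also low in ASAH+ Etoh livers, with sums of 90.8 to 125 CPM against 135 to 991 in ASAH- Etoh-Dox and 157 to 532 in ASAH+ Etoh-Dox. None of the 4 markers was at 0 in all mice, and 3 of the 3 tested had an unadjusted p under 0.05 in each comparison with ASAH+ Etoh. The log2 sum had a Pearson's r of 0.502 with Ier2 over the 13 mice (Spearman's rho 0.615; permutation p = 0.0809 and 0.0286, adjusted 0.681 and 0.573), 0.199 with the group means removed and 0.684 without the 2 mice farthest from the median sum. Other marker lists also differed. Of 6 sinusoidal endothelial markers, 5 were lower in ASAH+ Etoh-Dox than in ASAH+ Etoh at an unadjusted p under 0.05, with sums of 108 to 150 CPM against 139 to 191. In ASAH+ Etoh-Dox relative to ASAH- Etoh-Dox (125 to 231 CPM) 4 were lower at that level, and between ASAH- Etoh-Dox and ASAH+ Etoh 0 differed. The share of all genes at that level was 7.29%, 2.86% and 9.19% in these 3 comparisons, in the order given. Of 6 Kupffer cell markers, 4 were higher in ASAH- Etoh-Dox than in ASAH+ Etoh at that level, with sums of 315 to 676 CPM against 246 to 313. None of these markers passed the adjusted threshold and none was at 0 in all mice. Their log2 sums had r = -0.0477 and 0.19 with Ier2 (rho -0.165 and 0.176; permutation p = 0.877 and 0.54 for r, adjusted 0.986 and 0.83), and 0.307 and -0.065 with the group means removed. The mitochondrial share of counts was also low in ASAH+ Etoh, at 5.76 to 7.22% against 7.33 to 7.90% in ASAH- Etoh-Dox and 6.83 to 7.60% in ASAH+ Etoh-Dox. Its r with Ier2 was 0.504 (rho 0.412; permutation p = 0.077 and 0.162, adjusted 0.681 and 0.761), 0.181 with the group means removed and 0.0423 without the 2 farthest mice. The parts of other cells and of the mitochondrial share in the level of Ier2 were not tested.

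Atf3 encodes a stress-induced factor of the ATF/CREB family that pairs with JUN proteins, at chr1:191170296-191218039 on the minus strand. It measured 1.64, 2.20, 3.55 and 0.894 CPM in ASAH- Etoh-Dox, 4.70, 1.23, 0.904, 1.00 and 1.08 CPM in ASAH+ Etoh-Dox, and 2.81, 1.18, 1.3 and 4.45 CPM in ASAH+ Etoh. ASAH+ Etoh-Dox 1, the highest of all, stood well apart from the 4 other mice of its group, which lay between 0.904 and 1.23 CPM. Leaving it out moved the log2 fold change against ASAH+ Etoh from -0.40 to -1.19, and leaving out ASAH+ Etoh 4 turned it to 0.04. Neither passed the threshold.

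Zfp36 and Dusp1 are the feedback members. Zfp36 encodes tristetraprolin, which binds AU-rich elements and hastens the decay of cytokine and immediate early transcripts, and lies at chr7:28376784-28380253 on the minus strand. Dusp1, at chr17:26505590-26562128 on the minus strand, encodes a phosphatase that switches off p38, JNK and ERK.

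Zfp36 measured 72.6, 49.6, 56.9 and 46.5 CPM in ASAH- Etoh-Dox, 61.2, 53.7, 49.2, 67.2 and 53.8 CPM in ASAH+ Etoh-Dox, and 30.8, 44.6, 60.7 and 81.2 CPM in ASAH+ Etoh. It was the steadiest of the 10, with a 2.64-fold range. Dusp1 measured 14.2, 7.82, 10.3 and 9.15 CPM in ASAH- Etoh-Dox, 9.71, 10.4, 8.79, 11.3 and 8.98 CPM in ASAH+ Etoh-Dox, and 9.77, 5.29, 9.23 and 18.3 CPM in ASAH+ Etoh. For both genes the range of ASAH+ Etoh mice enclosed every mouse of the other groups. The 95% confidence intervals of the log2 fold changes were narrow here, from -0.48 to 0.51 for Zfp36 and from -0.67 to 0.52 for Dusp1 between the 2 Etoh-Dox groups.

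Myc encodes a growth-promoting transcription factor that binds E-boxes with MAX, at chr15:61985391-61990374 on the plus strand. It measured 1.05, 2.31, 2.16 and 3.29 CPM in ASAH- Etoh-Dox, 2.93, 14, 1.52, 1.12 and 0.911 CPM in ASAH+ Etoh-Dox, and 1.98, 2.16, 1.76 and 6.07 CPM in ASAH+ Etoh. A single liver, ASAH+ Etoh-Dox 2 with 389 counts, was more than 2 times as high as any other. The log2 fold change between the 2 Etoh-Dox groups was 0.89 ± 0.79 (SE) with all mice, -0.43 without ASAH+ Etoh-Dox 2 and 0.20 with limma-voom, none past the threshold. In that liver 7 of the other 9 genes were under the median of the 13 mice, Fosb was at it and Dusp1, at rank 4 with 10.4 CPM, was above it.

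**Figure D1:**
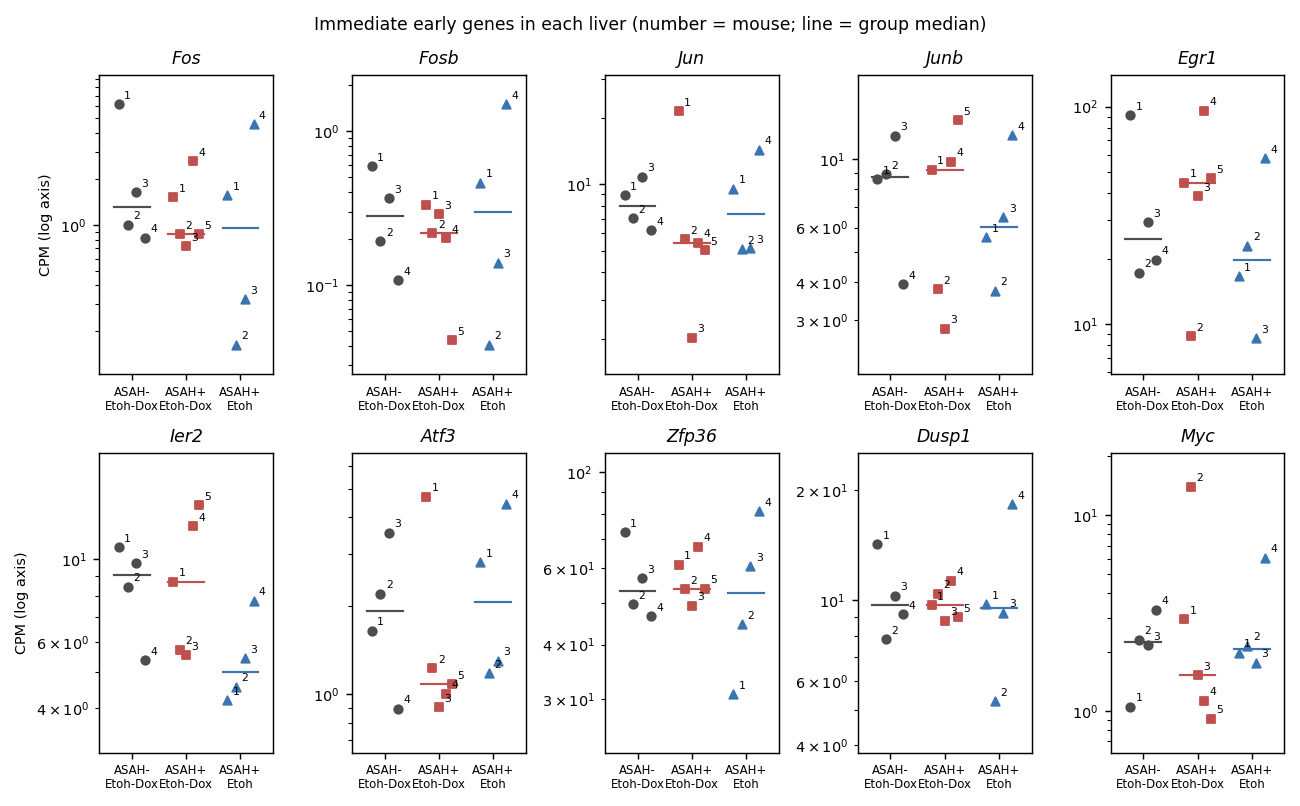
Level of each of the 10 genes in each liver, in CPM on a log axis, by group; numbers are the mice and lines the group medians. In every panel the 3 groups overlap, and the mouse ASAH+ Etoh 4 is the highest of its group.

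Across the 3 comparisons none of the 9 genes tested passed an adjusted p of 0.1 in edgeR's quasi-likelihood test. The share of all genes that passed was 0.014% in each (2 of 14317). Between ASAH+ Etoh-Dox and ASAH- Etoh-Dox, 0 of the 9 had an unadjusted p under 0.05, against 2.86% of all genes. Between ASAH+ Etoh-Dox and ASAH+ Etoh it was 1 of 9, Ier2, against 7.29%. Between ASAH- Etoh-Dox and ASAH+ Etoh it was 0 of 9, against 9.19%. In no comparison were the groups of a member free of overlap, which was the case for 0.887%, 2.58% and 5.5% of all genes in the same order. The median log2 fold change of the 9 was -0.040, 0.071 and 0.055, and that of all genes was -0.0023, 0.013 and 0.017.

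These counts come with wide errors. The median SE of a member's log2 fold change was 0.56, 0.57 and 0.60 in the 3 comparisons, and that of all genes 0.16, 0.16 and 0.17. Intervals for Fos, Egr1 and Myc reached 1.8 or more on the log2 scale in at least 1 direction in each comparison, so differences of that size in these genes lay within the error of 4 or 5 mice a group. Intervals for Zfp36 did not go beyond 0.57 in either direction. The sign of 23 of the 27 fold changes turned when some single mouse was left out. The 4 that kept it were those of Ier2 in both comparisons with ASAH+ Etoh, Egr1 in ASAH+ Etoh-Dox relative to ASAH+ Etoh, and Junb in ASAH- Etoh-Dox relative to ASAH+ Etoh, which went from 0.28 to 0.053 without ASAH- Etoh-Dox 3, 0.064 without ASAH+ Etoh 2 and 0.64 without ASAH+ Etoh 4.

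**Figure D2:**
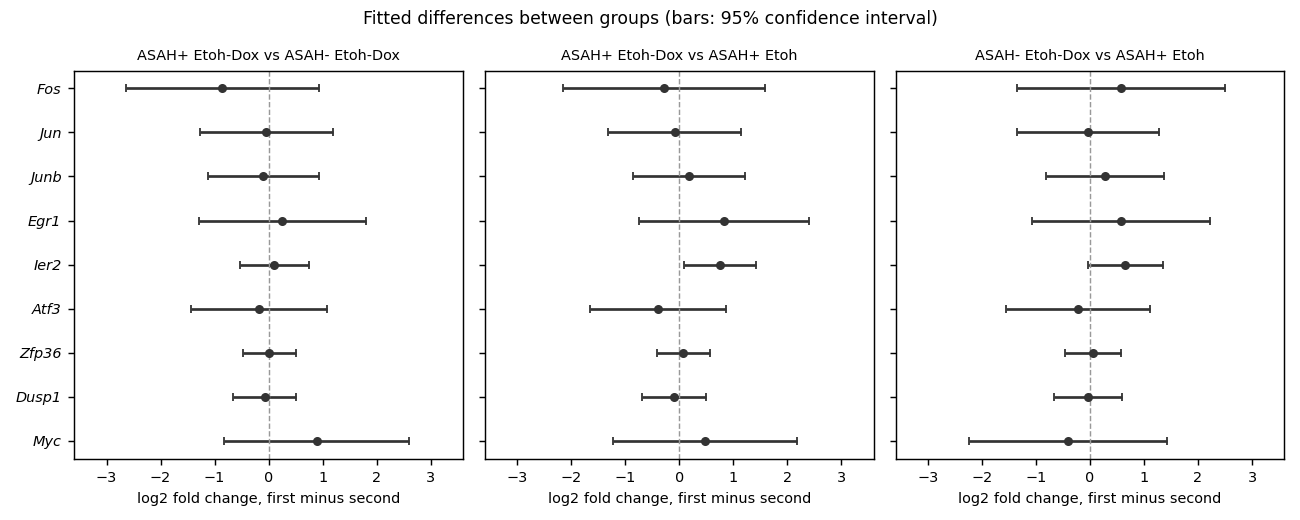
Fitted log2 fold change of the 9 genes tested in the 3 comparisons (first group minus second), with 95% confidence intervals over all 13 mice. Of the 27 intervals only that of Ier2 in ASAH+ Etoh-Dox relative to ASAH+ Etoh (0.09 to 1.42) leaves out 0, before any adjustment.

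Mice of one group differed widely in most of these genes. The within-group SD of log2 CPM (prior count 2) was 1.35 for Fos, 1.17 for Egr1, 1.13 for Myc, 0.88 for Atf3, 0.88 for Jun and 0.80 for Junb. These 6 of the 9 genes tested were above the 90th percentile of all genes (0.57), and their percentiles ran from 96.3 for Junb to 98.8 for Fos. Ier2 (SD 0.50), Dusp1 (0.46) and Zfp36 (0.38) were at the percentiles 85.6, 81.7 and 73.3. The median was 0.88 for the 9 members and 0.24 for all genes. Counting error alone would give an SD of about 0.34 for Fos, 0.24 for Atf3, 0.21 for Myc and 0.06 for Egr1, and 0.78 for Fosb, whose measured SD was 1.08. Apart from Fosb, the spread between mice was thus several times the counting error.

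The spread did not fall evenly over the groups. For Fos the SD within a group was 1.94 in ASAH+ Etoh, 1.26 in ASAH- Etoh-Dox and 0.72 in ASAH+ Etoh-Dox. For Dusp1 it was 0.73, 0.36 and 0.15, and for Zfp36 0.60, 0.28 and 0.18, in the same order. The other 6 genes tested had their widest spread in ASAH+ Etoh-Dox, with 1.55 for Myc, 1.26 for Egr1, 1.2 for Jun, 0.96 for Junb, 0.94 for Atf3 and 0.61 for Ier2. Whether these SDs differ between groups was not tested.

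The same livers were high in several genes. ASAH+ Etoh 4 was among the 3 highest of 13 mice in 9 of the 10 genes, the exception being Ier2, and was the highest in Fosb, Zfp36 and Dusp1. ASAH- Etoh-Dox 1 was among the 3 highest in 6 genes (Fos, Fosb, Egr1, Ier2, Zfp36 and Dusp1), and ASAH+ Etoh-Dox 4 in 5. At the other end, ASAH+ Etoh 2 was among the 3 lowest in 7 genes and ASAH+ Etoh-Dox 3 in 5. ASAH+ Etoh-Dox 1 led Jun and Atf3, ASAH+ Etoh-Dox 5 led Junb and Ier2, and ASAH+ Etoh-Dox 2 led Myc. Each group therefore held high and low livers.

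**Figure D3:**
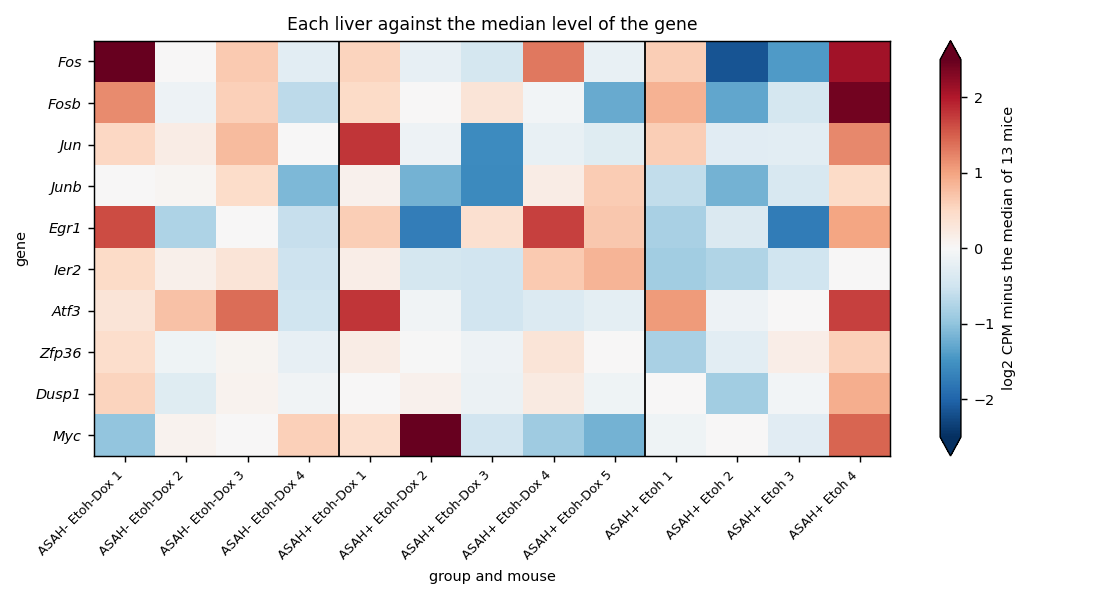
Each gene (rows) in each liver (columns), as log2 CPM minus the median of that gene over the 13 mice; black lines part the groups, and red is above and blue below the median. ASAH+ Etoh 4 is at or above the median in every row, and the rest of its group is mostly below.

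Correlations of log2 CPM over the 13 mice were computed for all 45 pairs of the 10 genes, and 41 were above 0. With Benjamini-Hochberg adjustment over the 45 pairs, 8 passed an adjusted permutation p of 0.1, and none of them involved Myc. By Spearman's rho 16 pairs passed, 5 of them with Zfp36, which was in none of the 8. Every pair below 0 held Myc, so the 36 pairs without Myc were all above 0 by that split, which follows these same values. Their median r was 0.518, with a range from 0.072 to 0.876. The 9 pairs with Myc ran from -0.484 to 0.267. Values of a pair come from the same libraries and share their depth and scaling.

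Fos went with its feedback gene Dusp1. Pearson's r was 0.876 (Spearman's rho 0.791; permutation p = 0.00016 and 0.00216, adjusted 0.0036 and 0.0462), 0.900 with the group means removed, and 0.769 without the 2 mice farthest from the median of Fos. Fosb joined them, with r = 0.828 to Dusp1 (rho 0.742; permutation p = 0.00078 and 0.00513, adjusted 0.0117 and 0.0462) and 0.791 to Fos (rho 0.764; permutation p = 0.00157 and 0.00361, adjusted 0.0141 and 0.0462). Without the 2 farthest mice the r of Fosb with Dusp1 was 0.562, so much of that relation rests on those livers. The windows of Fos, Dusp1 and Atf3 held the CRE core, and that of Fosb did not. Atf3 had r = 0.46 with Fos and 0.404 with Dusp1 (rho 0.516 and 0.385; adjusted permutation p = 0.219 and 0.287 for r). Any part of the motif in these relations was not tested.

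Jun went with Atf3, whose products pair with each other. Pearson's r was 0.875 (rho 0.835), with a permutation p of 1e-05, the smallest that the resamples could give, for r (adjusted 0.00045) and 0.00062 for rho (adjusted 0.0279). It was 0.872 with the group means removed and 0.914 without the 2 mice farthest from the median of Jun, but 0.76 without the 2 farthest from the median of Atf3. The 4 livers highest in Jun (ASAH+ Etoh-Dox 1, ASAH+ Etoh 4, ASAH- Etoh-Dox 3 and ASAH+ Etoh 1) were also the 4 highest in Atf3, in the same order.

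Junb went with Ier2, its neighbor in rank of level and also a gene of chromosome 8. Pearson's r was 0.807 (rho 0.747; permutation p = 0.00155 and 0.00453, adjusted 0.0141 and 0.0462), 0.930 with the group means removed and 0.794 without the 2 mice farthest from the median of Junb. Egr1 had r = 0.688 with Ier2 and 0.671 with Fos (rho 0.698 and 0.621; permutation p = 0.0109 and 0.0122 for r, both adjusted 0.0684). Fosb and Atf3 had r = 0.679 (rho 0.643; permutation p = 0.00925, adjusted 0.0684). The number of pairs past the threshold was 5 without ASAH- Etoh-Dox 4, 13 without ASAH+ Etoh 1 and 14 without ASAH+ Etoh-Dox 5.

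**Figure D4:**
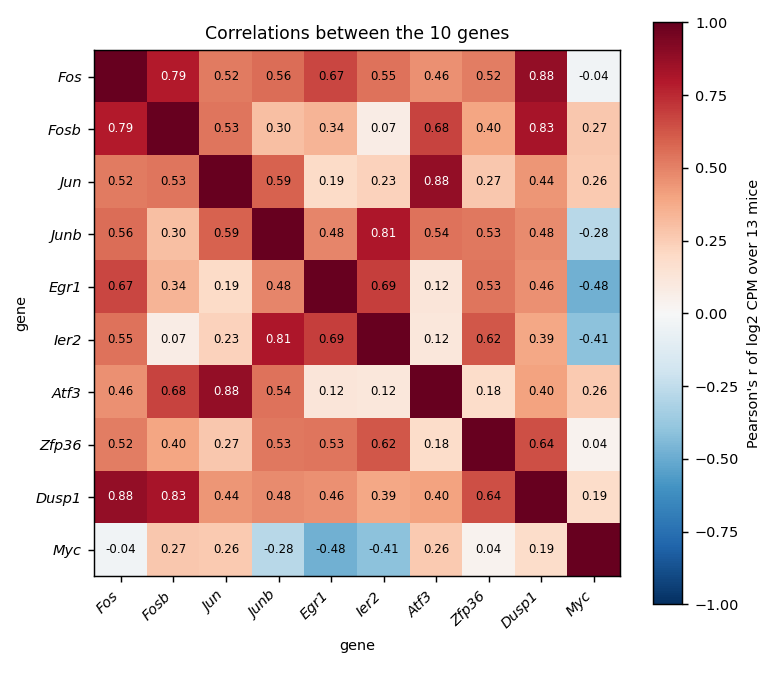
Pearson's r of log2 CPM over the 13 mice for each pair of the 10 genes (red above 0, blue below). The pairs without Myc are all above 0, up to 0.88 for Fos with Dusp1, and the row of Myc runs from -0.48 for Egr1 to 0.27 for Fosb.

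**Figure D5:**
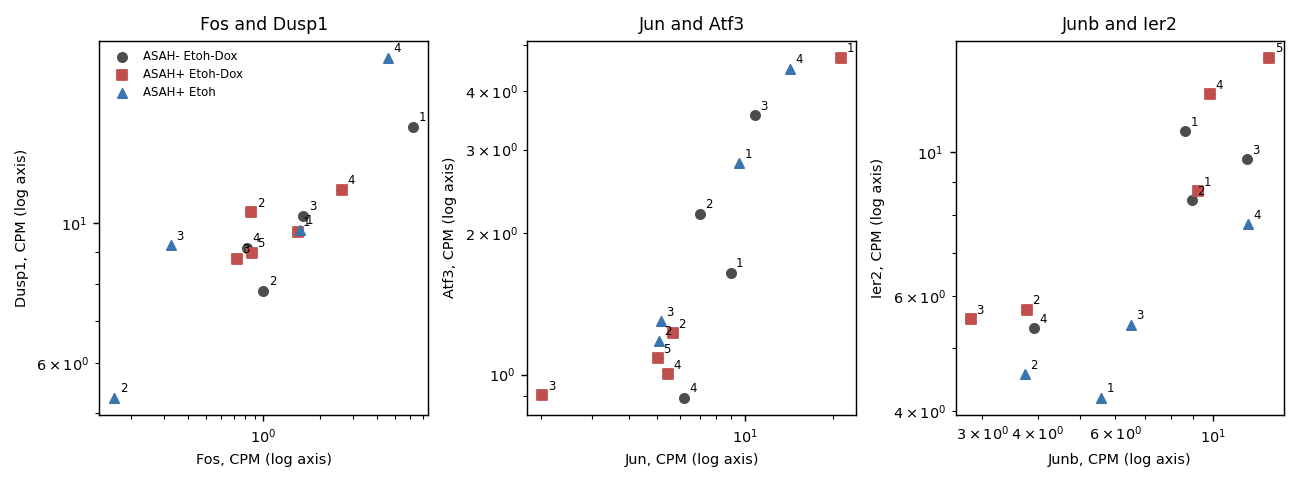
The 3 pairs Fos with Dusp1, Jun with Atf3 and Junb with Ier2, as CPM on log axes; each point is 1 liver with its mouse number, and color and shape give the group. Livers high in one gene of a pair were mostly high in the other, and 2 of the ASAH+ Etoh livers (mice 2 and 4) lie lower in Ier2 than Etoh-Dox livers of like Junb. Mouse 1 of ASAH+ Etoh has the lowest Ier2 of all livers (4.19 CPM), below Etoh-Dox livers with less Junb.

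Likeness was also ranked against every gene tested, as r of log2 CPM with the group means removed over the 13 mice. For Dusp1, Fos was at rank 7 of 14316 genes, and for Fos, Dusp1 was at rank 14. Atf3 was at rank 10 for Jun and Jun at rank 41 for Atf3, Ier2 at rank 10 for Junb, and Junb at rank 7 for Ier2. For Egr1 the nearest member was Fos at rank 520, for Zfp36 it was Dusp1 at rank 329, and for Myc it was Jun at rank 3684. The 10 genes outside the list most like Fos were Slc25a21, Ren1, Fasn, Mypop, Nars2, Six5, Mbd1, Zbtb21, Baat and Ankrd33b, with r from 0.907 to 0.925. The 3 at the other end were 1700080G11Rik (-0.961), Slc25a46 (-0.96) and Tigd2 (-0.946). The most alike gene of each of the 9 members, Myc included, had an r between 0.904 and 0.955, so values of this size were not particular to Fos, and nothing about shared control follows from them.

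A list of 51 other immediate early genes was examined in the same way. Of these, 45 were tested and 0 passed the threshold in any comparison. In ASAH+ Etoh-Dox relative to ASAH+ Etoh, Srf (serum response factor) had a log2 fold change of 0.45 ± 0.15 (unadjusted p = 0.00844, adjusted 0.534 in edgeR) and Trib1, a pseudokinase that controls C/EBP proteins, -0.51 ± 0.22 (unadjusted p = 0.0338, adjusted 0.636). The median percentile of their within-group SD was 80.2, and 34 of the 45 had an r above 0 with Fos (median 0.329), against 7455 of 14316 genes (median 0.0261).

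A few of them, chosen after their values were seen, are given in more detail. Nr4a1, an orphan nuclear receptor, was 2.65, 1.39, 4.41 and 0.751 CPM in ASAH- Etoh-Dox, 3.93, 1.19, 0.542, 2.01 and 0.781 CPM in ASAH+ Etoh-Dox, and 1.98, 0.326, 0.51 and 13.4 CPM in ASAH+ Etoh. Its highest liver, ASAH+ Etoh 4, was next to the highest in Fos, and its lowest, ASAH+ Etoh 2, was the lowest in Fos. The kinase gene Plk3 ran from 8.42 CPM in ASAH+ Etoh-Dox 3 to 123 CPM in ASAH+ Etoh 4, and Crem, a CRE-binding modulator, from 10.9 CPM in ASAH- Etoh-Dox 4 to 31.4 CPM in ASAH+ Etoh 4. With the group means removed, r with Fos was 0.852 for Nr4a1, 0.805 for Crem and 0.611 for Plk3, whose next highest liver, ASAH+ Etoh-Dox 1 at 89.5 CPM, was at rank 6 in Fos. Across the list, ASAH+ Etoh 4 was the highest liver in 15 of 51 genes, among them Nr4a1, Nr4a2, Nr4a3, Klf2, Klf4, Klf6 and Btg2. ASAH+ Etoh-Dox 1 was the highest in 14, among them Ier3, Maff, Dusp4, Dusp6 and Cebpb, as it was in Jun and Atf3. These tallies include genes that did not pass the filter on low counts, whose highest liver can rest on few counts. They are Nr4a3 for ASAH+ Etoh 4, and Fosl1, Dusp2 and Arc for ASAH+ Etoh-Dox 1, the library with the most counts.

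Of 31 kinases and factors upstream of immediate early genes, 31 were tested and 0 passed. The median percentile of their spread was 34.9, and 15 of 31 had an r above 0 with Fos. By the naming rule, Elk3, an ETS factor that acts with SRF, was at -0.503 ± 0.21 in ASAH+ Etoh-Dox relative to ASAH- Etoh-Dox (adjusted p = 0.99966 in edgeR). Relative to ASAH+ Etoh it was at -0.505 ± 0.21 (adjusted p = 0.623 in edgeR), and both values rest on the same ASAH+ Etoh-Dox mice. The kinase gene Braf was at -0.29 ± 0.10 in ASAH- Etoh-Dox relative to ASAH+ Etoh (adjusted p = 0.421 in edgeR). Of 12 partners of AP-1 and ATF proteins, among them Jund, Fosl1 and Fosl2, which the list of other immediate early genes also holds, 11 were tested and 0 passed. The median percentile of their spread was 87.4, and 8 of 11 had an r above 0 with Fos (median 0.293). The value for Atf2 was -0.20 ± 0.08 in ASAH- Etoh-Dox relative to ASAH+ Etoh (adjusted p = 0.464 in edgeR).

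The Myc network (MAX and its partners) had 10 of 11 genes tested and 0 past the threshold. Mlx was at -0.27 ± 0.10 in ASAH+ Etoh-Dox relative to ASAH+ Etoh (adjusted p = 0.602 in edgeR) and Mga at -0.28 ± 0.12 in ASAH- Etoh-Dox relative to ASAH+ Etoh (adjusted p = 0.523). Of 16 textbook Myc targets, 16 were tested and 0 passed. Only Odc1, the first enzyme of polyamine synthesis, had an unadjusted p under 0.05 (0.0213 in edgeR). It was at -0.28 ± 0.11 between the 2 Etoh-Dox groups (adjusted p = 0.99966 in edgeR). The smallest adjusted p of a target was 0.763 in edgeR, in ASAH- Etoh-Dox relative to ASAH+ Etoh. The median percentile of the spread was 44.3 for the network and 34.8 for the targets, whereas Myc itself was at 98.3.

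Measures that could move with these genes were set beside them. In all, 12 measures of each liver (clock ratio, depth, mitochondrial share, Asah1 level and the summed markers of 8 cell types) were correlated with the 10 genes, and 0 of the 120 relations passed an adjusted permutation p of 0.1. The highest Pearson's r in size over the 13 mice was that of Egr1 with the log2 ratio of the clock genes Dbp to Arntl, which ran from -1.64 in ASAH+ Etoh-Dox 3 to 6.78 in ASAH+ Etoh-Dox 2. Its r was -0.714 (rho -0.637; permutation p = 0.00738 and 0.0229, adjusted 0.337 and 0.573), -0.701 with the group means removed and -0.70 without the 2 farthest mice. ASAH- Etoh-Dox 1 and ASAH+ Etoh-Dox 4, the livers highest in Egr1, had ratios of -0.955 and 0.151. Myc had r = 0.51 with this ratio (rho 0.643; permutation p = 0.0699 and 0.021, adjusted 0.681 and 0.573), 0.508 with the group means removed and 0.401 without the 2 farthest mice. In ASAH+ Etoh-Dox 3, with the lowest ratio, Egr1 was 38.8 CPM. The clock genes themselves (14 of 14 tested, 0 past the threshold) had a median percentile of spread of 97.7.

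Fos had r = 0.705 with the summed cholangiocyte markers (rho 0.632; permutation p = 0.00665 and 0.0242, adjusted 0.337 and 0.573), 0.697 with the group means removed and 0.445 without the 2 farthest mice, so that relation rests in part on those livers. These 4 markers summed to 3.54 to 8.95 CPM and none was at 0 in all mice. Egr1 had r = -0.694 with the neutrophil markers (rho -0.615; permutation p = 0.00843 and 0.0281, adjusted 0.337 and 0.573), -0.689 with the group means removed and -0.593 without the 2 farthest, which summed to 0.685 to 2.43 CPM with 2 of 6 past the count filter. The log2 total count had r between -0.468 (Dusp1) and 0.0497 (Myc), and with the group means removed it was -0.629 for Dusp1, -0.584 for Ier2 and -0.577 for Fos. The mitochondrial share of counts, 5.76 to 7.90%, had r = 0.604 with Fos (rho 0.346; permutation p = 0.0304 and 0.25, adjusted 0.681 and 0.827). With the group means removed this was 0.619, and it was 0.797 for Dusp1, 0.724 for Fosb and 0.645 for Zfp36. Without the 2 mice farthest from the median share, r over all mice was 0.53 for Fos, 0.356 for Fosb, 0.204 for Dusp1 and 0.0865 for Zfp36. Of 9 glucocorticoid-responsive genes, 9 were tested and 0 passed, with Mt2, a metallothionein, at -1.19 ± 0.51 between the 2 Etoh-Dox groups (adjusted p = 0.99966 in edgeR). The parts of the clock, depth, mitochondrial share, cell makeup and glucocorticoid response in the levels of the 10 genes were not tested.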

How the data were processed

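RNA of 13 whole livers was sequenced by the authors as single reads of 100 bases from poly(A)-selected, strand-marking libraries. The authors quantified the reads with salmon on the transcripts of GENCODE M19 (GRCm38.p6, also named in the submitters' processing notes) and summed them to genes with tximport. Estimated counts were deposited, 1 whole number per gene and mouse, unscaled. How salmon used the strand is not given in the sources used here, so counts of genes that overlap a neighbor (Jun, Junb, Atf3, Zfp36, Dusp1) are uncertain. Total counts were 17819486 to 35358711 per mouse. Symbols and loci came from GENCODE M21, and 53355 of 53392 identifiers matched.

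The members and the gene lists were chosen with earlier results of these data known. Groups came from the sample descriptions and induction labels. In R 4.3.3, edgeR 4.0.16 kept 14317 genes by its filter with the 3 groups, scaled by TMM and fitted robust quasi-likelihood models of 3 group means on all 13 mice. P-values were corrected across the genes tested (Benjamini-Hochberg) and called under 0.1. Dividing the log2 fold change by the root of F gave the SE. For single genes, mean log2 CPM (prior count 2) was also compared by exact two-sided permutation. Correlations used 100000 permutations in scipy 1.17.1. The tests were first tested on simulated data.

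All 10 members were named, with Asah1, the list genes past the threshold or, per list and comparison, the largest rise and fall at an unadjusted p under 0.05, the 10 genes most and 3 least like Fos, and marker lists that moved with a result. The marker sums used 8 lists.

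Alternatives were DESeq2 1.42.0, its size factors in edgeR, limma-voom (limma 3.58.1), no count filter, edgeR with 2 groups only, a minimum of 10 counts in each liver, the replicate number as a block, an adjusted p under 0.05, a prior count of 0.5, each mouse left out, and, chosen after seeing the data, a covariate for the clock (log2 Dbp over Arntl).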

Additional observations from a re-analysis of the deposited data

Results flagged for a closer look

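Of 30 groups of mice checked (10 genes in 3 groups), 2 held a liver whose distance from its nearest neighbor took up most of the group's range on the log2 CPM scale (prior count 2), by Dixon's test at the 95% level, and chance alone gives about 1 in 20. For Atf3 in ASAH+ Etoh-Dox the gap between mouse 1 (4.70 CPM) and the next (1.23 CPM) was 0.821 of the range in log2 CPM, above the limit of 0.71 for 5 mice. For Myc in ASAH+ Etoh the gap between mouse 4 (6.07 CPM) and the next (2.16 CPM) was 0.839 of the range in log2 CPM, just above the limit of 0.829 for 4 mice.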

How the results depend on the processing

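No member passed the threshold under any alternative that gave it an adjusted p (0 of 201 such fold changes out of 213 recomputed, and the smallest adjusted p with a mouse left out was 0.331). DESeq2 gave none of the 10 an adjusted p in ASAH+ Etoh-Dox relative to ASAH+ Etoh, since its own filter kept 1982 genes there, and left 4 without one in ASAH- Etoh-Dox relative to ASAH+ Etoh. The sign turned in 12 of the 213. In ASAH+ Etoh-Dox relative to ASAH+ Etoh it turned with limma-voom for Fos (0.67), Dusp1 (0.068) and Myc (-0.066). In ASAH- Etoh-Dox relative to ASAH+ Etoh it turned with limma-voom for Dusp1 (0.10) and Jun (0.088), and with the clock covariate for Jun (0.026). The cause was not tested.

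Replicate numbers do not pair the mice: deviations of the 12 same-numbered pairs correlated from -0.265 to 0.19, and 0 of 13 mice correlated best with their own number. With a block for the replicate number the sign turned for Fos (0.22), Dusp1 (0.014) and Junb (-0.12) in ASAH+ Etoh-Dox relative to ASAH+ Etoh, for Dusp1 (0.039) and Jun (0.095) in ASAH- Etoh-Dox relative to ASAH+ Etoh, and for Ier2 (-0.16) between the Etoh-Dox groups, and the genes called were 1 between the Etoh-Dox groups and 0 in ASAH- Etoh-Dox relative to ASAH+ Etoh.

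The number of all genes called, 2 in each comparison, was 12, 98 and 149 with DESeq2 (ASAH+ Etoh-Dox against ASAH- Etoh-Dox, ASAH+ Etoh-Dox against ASAH+ Etoh, and ASAH- Etoh-Dox against ASAH+ Etoh). It was 1 in the first and 0 in the last with only the groups compared, and 4 in the middle one without a count filter. In the last it was 1 with limma-voom, 1 with the clock covariate and 0 at an adjusted p under 0.05.

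With each mouse left out in turn, all genes called ranged from 1 to 2, from 2 to 8 (8 without ASAH+ Etoh 2) and from 0 to 2 in that order, pairs of correlated genes from 5 to 14, and the median spread of the members from 0.693 to 0.923. Fold changes between the Etoh-Dox groups ranged from -1.25 to 0.207 for Fos, -0.857 to 0.213 for Jun, -0.366 to 0.127 for Junb, -0.176 to 1.10 for Egr1, -0.080 to 0.253 for Ier2, -0.965 to 0.21 for Atf3, -0.0654 to 0.17 for Zfp36, -0.188 to 0.124 for Dusp1 and -0.426 to 1.15 for Myc. In ASAH+ Etoh-Dox relative to ASAH+ Etoh they ranged from -0.681 to 0.944 for Fos, -0.91 to 0.27 for Jun, -0.109 to 0.558 for Junb, 0.399 to 1.54 for Egr1, 0.554 to 0.955 for Ier2, -1.19 to 0.0377 for Atf3, -0.124 to 0.322 for Zfp36, -0.334 to 0.275 for Dusp1 and -0.84 to 1.05 for Myc. In ASAH- Etoh-Dox relative to ASAH+ Etoh they ranged from -0.502 to 1.79 for Fos, -0.241 to 0.301 for Jun, 0.0528 to 0.644 for Junb, -0.273 to 1.27 for Egr1, 0.506 to 0.839 for Ier2, -0.612 to 0.21 for Atf3, -0.14 to 0.297 for Zfp36, -0.26 to 0.34 for Dusp1 and -0.67 to 0.156 for Myc. Depth limits Fosb, Fos, Atf3 and Myc most, with medians of 6, 26, 34 and 53 counts per mouse.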
